A study of Homo sapiens with 4 samples.

Results

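The regions described here are the H3K9me3 peaks around the centromeres of human chromosomes 2, 3, 5 and 7. They were chosen by position alone, as every peak whose summit lay in 1 of 4 windows of the hg38 build: chr2:87000000-99200000, chr3:86500000-98900000, chr5:40600000-55400000 and chr7:52800000-66000000. Of the 4950 peaks of both deposited lists, 246 met this rule, 60 of the 1165 NC peaks and 186 of the 3785 OE-KDM4A peaks. No peak of the windows had the same start and end in both lists.

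The peaks came from Ishikawa cells, an established line of human endometrial cancer. The NC cells carry the treatment label none, and the other cells the label OE-KDM4A, which names the histone demethylase KDM4A. How KDM4A was delivered, whether the cells were 1 clone and what NC received are not given in the sources used here. Both conditions were grown and fixed alike, with 1% formaldehyde for 10 minutes. Each had 1 immunoprecipitated library and 1 input library. A difference between the conditions therefore has no replicate check, and no test between them was run. Intervals of counts, shares and ratios are exact, at the 95% level, and stand for the error of counting alone. Those of medians, at the same level, reflect the variation among regions. These regions come from 1 library per condition and are not replicates. Each list holds the authors' calls for 1 library, and its sequencing depth is unknown.

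Trimethylation of lysine 9 on histone H3 is written at centromere-flanking heterochromatin by the SUV39H methyltransferases, read by HP1 proteins and removed by enzymes of the KDM4 family. The chromatin around centromeres is built on tandem satellite repeats, and in hg38 the centromere arrays themselves are model sequences. The assembly holds fewer copies of some repeats than the genome does, so reads of many copies can collect at 1 place in a ChIP and an input library alike. A read of a repeat can also be placed at any near-identical copy, so the source copy of the peaks below is uncertain. The base sequence of the peaks was not analysed here.

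The windows held 25 NC and 73 OE-KDM4A peaks on chromosome 2, 3 and 34 on chromosome 3, 13 and 23 on chromosome 5, and 19 and 56 on chromosome 7. Together, OE-KDM4A had 3.10 peaks for each NC peak (2.31 to 4.22), against 3.26 (3.04 to 3.49) in the rest of the lists. The ratio was 2.92 on chromosome 2 (1.83 to 4.80), 11.3 on chromosome 3 (3.56 to 57.7), 1.77 on chromosome 5 (0.859 to 3.80) and 2.95 on chromosome 7 (1.72 to 5.25). The chromosome 5 interval holds 1 and the chromosome 3 interval rests on 3 NC peaks. Only the chromosome 3 interval lay wholly above the ratio of the rest of the lists. It depended on the setting: the chromosome 3 ratio was 4 (0.798 to 38.7) with a −log10 q of at least 10. In its gene-free stretch alone it was 3 (0.749 to 17.2). Both intervals hold 1, while those of the other settings tried lay above 1. In bases covered, the lists differed by a ratio of 3.71 (11158 bp of NC peaks, 41437 bp of OE-KDM4A peaks). The excess in OE-KDM4A lay mostly at the sides of the windows. Within the longest stretch without a RefSeq gene in each window, which holds most of the centromere, the lists had 45 and 72 peaks, a ratio of 1.60 (1.09 to 2.38). With both lists cut to the same length by q value the ratio was 1.73.

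**Figure D1:**
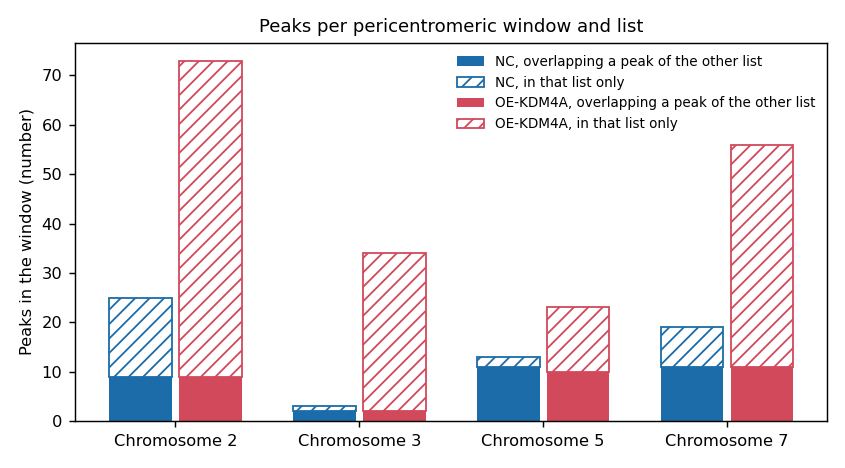
Number of H3K9me3 peaks in each pericentromeric window, NC in blue and OE-KDM4A in red, 1 library each. The filled part of a bar counts peaks that overlap a peak of the other list and the hatched part those found in that list only; chromosome 3 has 3 NC and 34 OE-KDM4A peaks.

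Some of the regions were common to both lists. Of the 60 NC peaks, 33 overlapped an OE-KDM4A peak by at least 1 bp (55.0%, 41.6 to 67.9), beside 34.7% over the whole NC list. Of the 186 OE-KDM4A peaks, 32 overlapped an NC peak (17.2%, 12.1 to 23.4), beside 10.2% over the whole OE-KDM4A list. The counts are nearly equal, so the gap between these shares follows from the lengths of the lists. The NC share was 84.6% on chromosome 5 (11 of 13, 54.6 to 98.1), 57.9% on chromosome 7 (11 of 19, 33.5 to 79.7) and 36.0% on chromosome 2 (9 of 25, 18.0 to 57.5). On chromosome 3 it was 2 of 3. These intervals overlap one another. From the side of OE-KDM4A the share was 43.5% on chromosome 5 (10 of 23, 23.2 to 65.5) and 19.6% on chromosome 7 (11 of 56, 10.2 to 32.4). It was 12.3% on chromosome 2 (9 of 73, 5.80 to 22.1) and 5.88% on chromosome 3 (2 of 34, 0.720 to 19.7). The chromosome 5 interval lay above those of chromosomes 2 and 3. With 50% of both peaks required it did not (7.46 to 43.7, beside 4.85 to 20.5 on chromosome 2). Common peaks had the higher q values in both lists, but not the higher folds in NC. Their median −log10 q was 18.8 in NC, against 4.81 for the 27 NC peaks found in that list only. In OE-KDM4A the medians were 43.4 and 6.18. The median fold of common peaks was 3.59 in NC, against 5.52 for those found in NC only, and 9.19 against 6.15 in OE-KDM4A. Over the 4 windows together, limits on q value moved both shares. A fold enrichment of at least 5 moved the OE-KDM4A share (7.64%), as did counting peaks within 5 kb as common (25.3%). The NC share stayed within its interval at these 2 settings (42.3% and 58.3%).

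The 4 windows differed in how their peaks were spread. On chromosome 5 the NC peaks sat in a narrow block, on chromosome 7 they were scattered, chromosome 2 had both forms, and chromosome 3 had 1 very strong peak and weak peaks around it. Joining peaks of a list that lay at most 10 kb apart left 5 clusters from 13 NC peaks on chromosome 5, but 19 from 19 on chromosome 7. The median distance between neighbouring NC summits was 1.88 kb on chromosome 5 and 141 kb on chromosome 7. In OE-KDM4A these distances were 3.88 kb and 49.7 kb, with 10 clusters from 23 peaks and 44 clusters from 56.

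**Figure D2:**
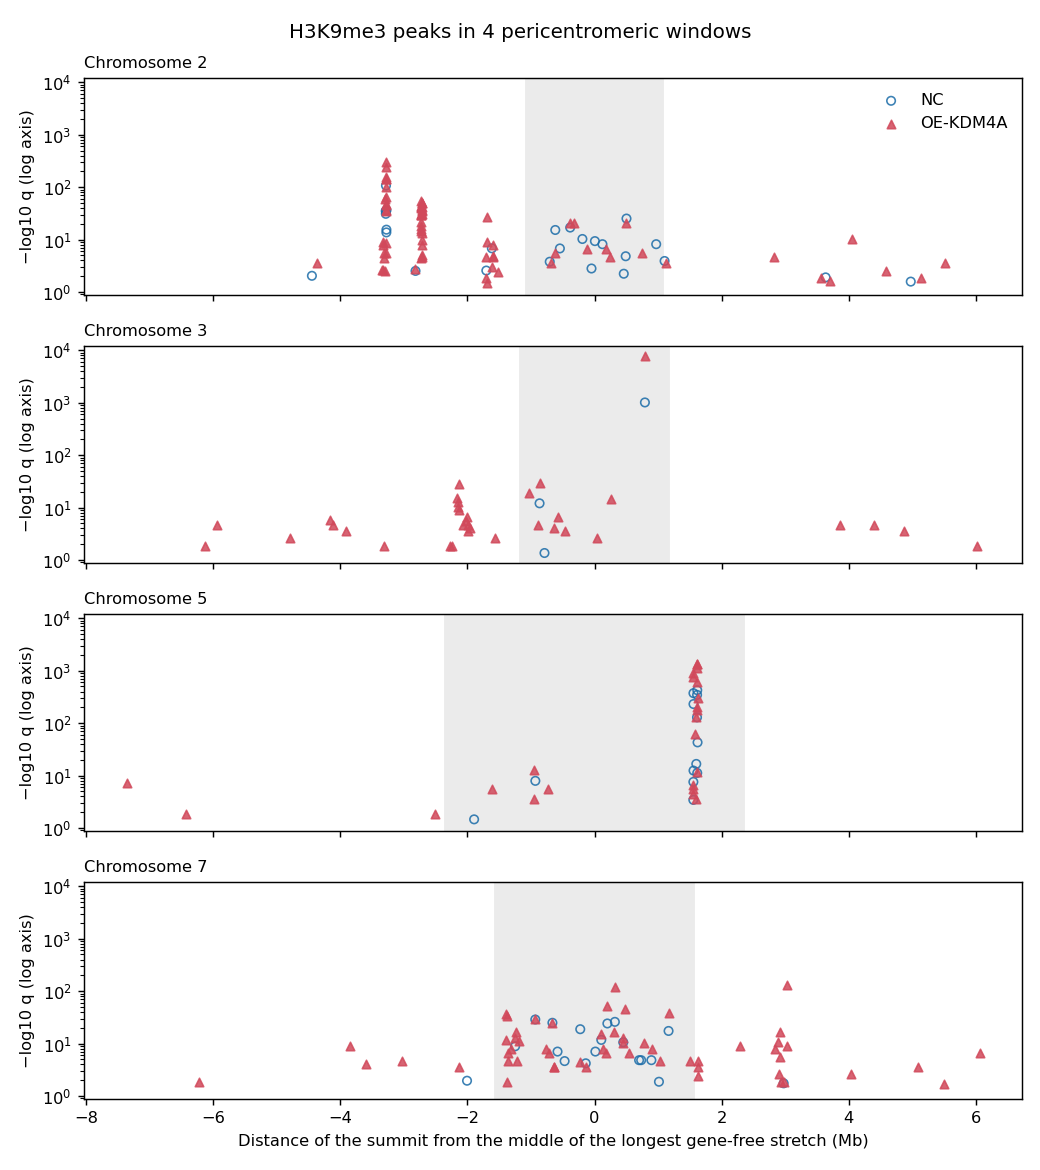
Each point is 1 peak, placed by the distance of its summit from the middle of the longest gene-free stretch of its window (grey, in Mb) and by its −log10 q on a log axis, for NC (blue circles) and OE-KDM4A (red triangles). Chromosomes 2 and 5 show vertical stacks of strong peaks, chromosome 7 shows peaks spread over the stretch, and chromosome 3 shows a lone pair near the top, the peak called in both lists with −log10 q of 1013 in NC and 7716 in OE-KDM4A.

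The chromosome 2 window held its strongest peaks on the short-arm side of the gene-free stretch, inside the span of the immunoglobulin kappa light chain locus. This locus, IGK, encodes an antibody chain through joined V, J and C segments and spans chr2:88857361-90235368. In it lay 6 NC and 21 OE-KDM4A peaks, between 89775894 and 89841183. None of them overlapped any of the 82 V, J or C segments of the RefSeq table. They lay in the 521 kb between the segments IGKV2-40 and IGKV2D-40, and the last ended 10.6 kb before IGKV2D-40.

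All 6 NC peaks of the locus fell within 12 kb, and 13 OE-KDM4A peaks lay in a cluster of 14.8 kb. The strongest peak of the NC list in this window, at 89833260 to 89833405, had a fold enrichment of 2.62 in NC and 4.78 in OE-KDM4A. Fold enrichment is the authors' value, the linear ratio of the ChIP to the control at the summit. The stacked ChIP fragments (the pileup) and the control background behind each fold were recovered from the deposited fold and p-value. For this peak they were 741 fragments over 282 in NC and 901 over 188 in OE-KDM4A. Pileups were not scaled between the libraries, whose depths are unknown. A pileup ratio of 1, here and below, therefore does not mark equal signal. At 89830940 to 89831082 the fold was 2.31 in NC, with 291 fragments over 125, and 13.4 in OE-KDM4A, with 335 over 24.1. The peak at 89841044 to 89841167 had almost the same pileup, 175 in NC and 174 in OE-KDM4A, and folds of 3.38 and 8.89. At these 3 summits the control background differed by a larger ratio than the pileup. At 89840301 to 89840559 the order was the other way. NC had 73 fragments over 19.6 and OE-KDM4A 108 over 15.6, a pileup ratio of 1.48 (1.09 to 2.02) and a background 1.26 times lower. The summits of this pair lay 185 bp apart, so these values are not of the same place. A strong OE-KDM4A peak at 89828495 to 89828723 (fold 6.65, −log10 q 157) had no NC counterpart, and an NC peak at 89839620 to 89839749 (fold 2.79, −log10 q 13.7) had no OE-KDM4A counterpart.

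A second group of chromosome 2 peaks was present in the OE-KDM4A list alone. It held 23 peaks with 36 summits in 21.7 kb, from 90380624 to 90402277, and covered 43.9% of that length. It lay beyond IGK, and the summit of its strongest peak was 22.7 kb from LOC124905368, an uncharacterised protein-coding gene. The nearest NC peak was 82.5 kb away. Folds ran from 4.06 to 17.2 with a median of 10.9, and −log10 q from 4.55 to 54.2. The strongest, at 90383456 to 90384703, was 1248 bp wide with 63 fragments over a background of 3.11. The widest, at 90397437 to 90398759, measured 1323 bp and had a fold of 16.8. Pileups in the group ran from 10 to 82. Without this group the chromosome 2 window had 50 OE-KDM4A peaks, or 2 for each NC peak. A list of called peaks does not show how far NC lay below its limit there.

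In the gene-free stretch of chromosome 2 the order of the lists was the other way, with 12 NC and 9 OE-KDM4A peaks, a ratio of 0.750 whose interval (0.279 to 1.94) holds 1. These peaks stood apart from one another and were of moderate strength. The strongest NC peak there, at 93615959 to 93616118, had a fold of 9.10 from 43 fragments, and 11 from 27 fragments in OE-KDM4A. At 92730259 to 92730388 the folds were 9.02 and 12.6, from 28 and 23 fragments. At 92495950 to 92496111 they were 8.63 and 6.30, from 26 and 11. The pileup ratio of the last was 0.423 (0.189 to 0.886), below 1, while the intervals of the other pair hold 1.

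**Figure D3:**
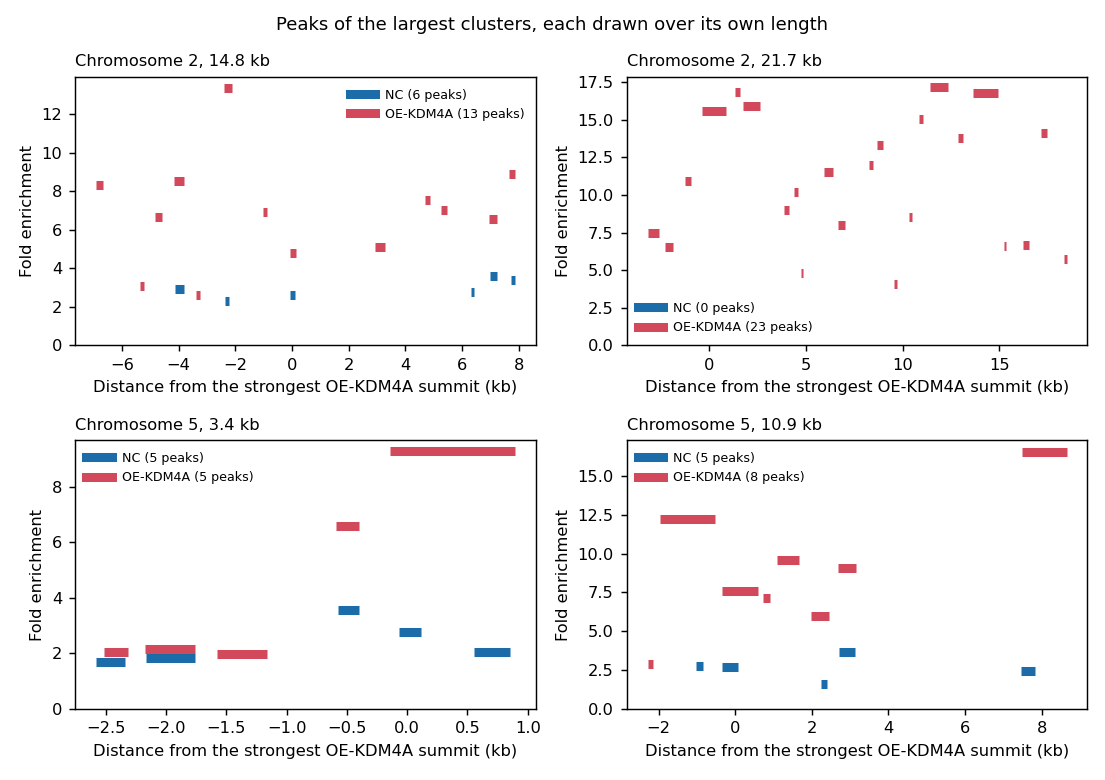
Fold enrichment of each peak in the 2 largest OE-KDM4A clusters of chromosome 2 (top) and of chromosome 5 (bottom), drawn over the peak's own length against the distance from the strongest OE-KDM4A summit in kb. The top right cluster holds 23 OE-KDM4A peaks and 0 NC peaks; in the other clusters the blue NC bars lie at folds of 3.65 or less and mostly under the red OE-KDM4A bars.

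On chromosome 3, the peak ranked 1 by q value in both lists spanned 93470368 to 93470788 in the NC list and 93470361 to 93470800 in that of OE-KDM4A. The nearest protein-coding gene was PROS1, which encodes the anticoagulant protein S, at 402 kb. The pileup was 5310 fragments in NC (5168 to 5455) and 8110 in OE-KDM4A (7934 to 8288), a ratio of 1.53 (1.48 to 1.58). The control background was 1744 in NC and 348 in OE-KDM4A, 5.02 times lower. The fold was therefore 3.04 in NC and 23.3 in OE-KDM4A. Of the regions called in both lists with a −log10 q of at least 30 in NC, a limit chosen after the values were seen, this one had the highest pileup ratio.

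The other chromosome 3 peaks were far weaker. The other common region, at 91813749 to 91813915, had 21 fragments and a fold of 8.14 in NC, and 29 fragments and a fold of 15.7 in OE-KDM4A. The third NC peak, at 91891295 to 91891433, had a fold of 1.73 over a background of 35.3 and a −log10 q of 1.36. OE-KDM4A had 21 peaks on the short-arm side of the gene-free stretch, where NC had 0, 9 within it and 4 on the long-arm side. Of the 32 peaks found in OE-KDM4A only, 31 lay more than 50 kb from any NC peak. With 3 NC peaks in the window, such distances say little about the OE-KDM4A peaks themselves. The same count was 38 of 64 on chromosome 2, 5 of 13 on chromosome 5 and 30 of 45 on chromosome 7. It was not made over the whole lists. A group of 4 spanned 9.23 kb from 90533601 to 90542826, with folds from 7.87 to 15.2, and lay over 1 Mb from EPHA3, an ephrin receptor gene. All 4 stood on the lowest background of the list, 0.905 fragments, as did 28 of the 34 OE-KDM4A peaks of this window. Their pileups were 14 to 28 fragments.

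Chromosome 5 held a block of strong peaks in both lists. Of its 13 NC peaks, 11 lay between 49599497 and 49666529, in the gene-free stretch before EMB, which encodes the membrane glycoprotein embigin. All 11 overlapped OE-KDM4A peaks, 2 of them the same wide one. The strongest peaks of the block lay 735 to 795 kb from EMB. Chromosome 5 supplied 4 of the 20 NC peaks of highest q value, and 2 of the 20 such OE-KDM4A peaks.

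At the 11 common regions of the block the fold was higher in OE-KDM4A at all 11 and the peak wider at 10, the exception being the region from 49599497 (244 bp in NC, 195 bp in OE-KDM4A). The strongest in NC, at 49661419 to 49661838, had 1736 fragments over 475 and a fold of 3.65. Its OE-KDM4A counterpart had 2007 over 220 and a fold of 9.08. The strongest in OE-KDM4A, at 49658345 to 49659296, was 952 bp wide with 6 summits and a fold of 7.61 (2648 over 347). The NC peak there was 417 bp wide with a fold of 2.70 (2212 over 817). The widest, at 49656738 to 49658179, measured 1442 bp and overlapped an NC peak of 198 bp. Pileups of that region were 814 in NC and 876 in OE-KDM4A, a ratio of 1.08 whose interval (0.977 to 1.19) holds 1. In the larger cluster the peaks covered 50.1% of 10.9 kb in OE-KDM4A and 17.5% of 8.86 kb in NC. A peak at 49659784 to 49660376, with a −log10 q of 1316 and a fold of 9.62, was called in OE-KDM4A only.

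The largest change of fold in any window was at 49645925 to 49646103. NC had 137 fragments over a background of 53.2 and a fold of 2.54. OE-KDM4A had 85 fragments over 0.905 and a fold of 45.1. The fold was thus 17.7 times higher in OE-KDM4A while the pileup was lower, at a ratio of 0.620 (0.468 to 0.819). A pair of weaker peaks nearby, at 49599497 and 49599911, also had lower pileups in OE-KDM4A (114 against 77 and 155 against 88) and slightly higher folds, but their summits in the lists lay 204 and 173 bp apart, so these pileups are not of the same place.

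On chromosome 7 the peaks were spread over the gene-free stretch, which holds 17 of the 19 NC and 34 of the 56 OE-KDM4A peaks. Their median width was 146 bp in NC (142 bp over the whole list) and 138 bp for OE-KDM4A (135 bp). The strongest NC peak, at 58497895 to 58498054, had 50 fragments and a fold of 8.97, and in OE-KDM4A 34 fragments and a fold of 13.7. The second, at 59749856 to 59750133, had 84 fragments over 17.0 in NC (fold 4.71) and 92 over 1.56 in OE-KDM4A (fold 36.4). The third, at 58767295 to 58767467, had 32 and 30 fragments and folds of 12.2 and 12.1. The pileup ratios of these 3 had intervals that hold 1. At 59205126 to 59205269 the fold was lower in OE-KDM4A, 4.38 against 10.4, the 1 region of the windows where it was at least 2 times lower. Among the 11 common regions of this window the pileup ratio had an interval that holds 1 at 10. As the depths are unknown, this does not show whether the signal differed at those.

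The strongest chromosome 7 peak of OE-KDM4A was found in that list only. It lay on the long-arm side of the stretch, at 62454621 to 62454836, with 179 fragments over 12.4, a fold of 13.4 and a −log10 q of 133. The gene-free stretch ends at 60991901, and between there and the end of the window OE-KDM4A had 17 peaks and NC 1. The strongest peaks found in NC only were a tie, at 58847947 to 58848098 and 59442995 to 59443140, each with 12 fragments, a fold of 7.18 and a −log10 q of 7.02.

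Over the 33 common regions, OE-KDM4A had the higher fold at 30, and by at least 2 times at 15. Of all 404 such regions of the lists, the fold was higher in OE-KDM4A at 318. The limit of 2 times was passed by 49.3% of them, a share close to that of the windows. The median difference of log2 fold was 0.88 (0.47 to 1.53) in the windows and 0.95 over all common regions. By window it was 1.75 on chromosome 5 (0.25 to 2.75), 0.87 on chromosome 2 (0.27 to 1.53) and 0.34 on chromosome 7 (-0.01 to 1.74). The pileup was higher in OE-KDM4A at 18 regions and lower at 15, with a median log2 difference of 0.09 (-0.30 to 0.20). Over all 404 regions it was higher at 198 and lower at 194. The control background was lower in OE-KDM4A at 30 regions of the windows, beside 329 of all 404. In the windows it was at least 2 times lower at 23, beside 60.4% of all common regions. The median log2 difference of background in the windows was -1.25 (-1.57 to -1.06).

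At the 11 common regions with a −log10 q of at least 30 in NC, the pileup ratio ran from 0.994 to 1.53, with a median of 1.15. The background was 1.51 to 6.69 times lower in OE-KDM4A at the same regions, with a median of 2.74. The value of 6.69 belongs to the chromosome 5 peak from 49666175, whose summits in the lists lay 977 bp apart, and the next highest was 5.19. The summits of the lists lay within 50 bp at 27 of the 33 regions. At 49602632 to 49602932 the background was higher in OE-KDM4A; the wide OE-KDM4A peak it overlaps has its summit 607 bp away, so the pileups of 171 and 1557 do not measure the same place.

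**Figure D4:**
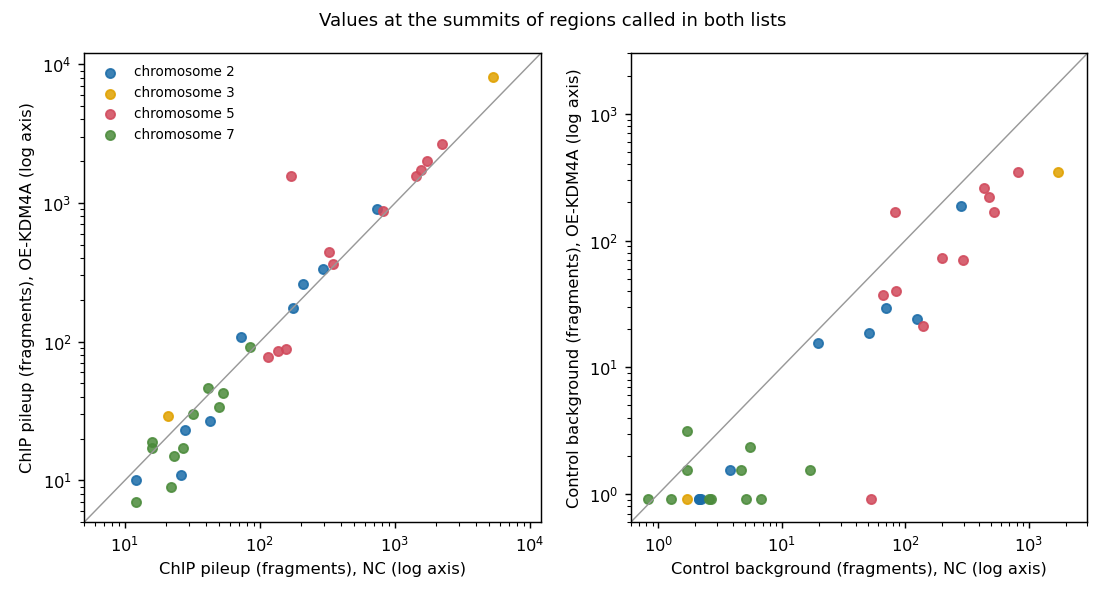
ChIP pileup (left) and control background (right) in fragments at the summits of the 33 regions called in both lists, NC on the horizontal and OE-KDM4A on the vertical log axis, coloured by chromosome, with a line at equal values. Pileups scatter around the line (18 above, 15 below), while 30 of 33 backgrounds lie under it. The summits of the lists lay within 50 bp at 27 of the 33 regions. The rest, up to 977 bp apart, are drawn and counted too. The chromosome 5 point far above the line on the left pairs summits 607 bp apart.

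In strength, the window peaks stood above the rest of their lists by q value in both conditions. The median −log10 q was 9.11 in NC (3.75 in the rest of the list) and 6.99 in OE-KDM4A (3.58). The median fold was 4.43 in NC, close to the 4.39 of the rest, and 6.48 in OE-KDM4A against 5.09. By window the NC medians of fold were 4.45 on chromosome 2, 3.04 on chromosome 3, 2.70 on chromosome 5 and 6.43 on chromosome 7. Chromosome 5 had the lowest median fold and the highest median −log10 q in NC (16.7), over a median background of 141. In OE-KDM4A the medians of fold lay closer together, from 5.77 on chromosome 3 to 6.82 on chromosome 7. At the lowest background of their list stood 11 of 60 NC peaks (18.3%, 9.52 to 30.4) and 99 of 186 OE-KDM4A peaks (53.2%, 45.8 to 60.6). In the rest of the lists the shares were 7.69% and 49.0%. The lowest value depends on the depth of the library, which is not known. These are comparisons within 1 library, whose peaks are not replicates.

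Most peaks lay far from protein-coding genes. The median distance from a summit to the nearest protein-coding gene was 795 kb in NC and 590 kb in OE-KDM4A. Chromosome 2 was closest in OE-KDM4A, with a median of 41.1 kb. Summits lay within the span of a protein-coding gene for 1 NC and 16 OE-KDM4A peaks. None of the 402 RefSeq promoter windows of the regions (GRCh38.p14, from 250 bases before to 50 after a gene's start) overlapped a peak, nor did any of 14 miRNA hairpins. None of these distances and counts was taken over the whole lists, so they do not show that peaks avoid genes, promoters or hairpins.

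Of the 208 protein-coding genes of the windows, 2 had an NC peak in their span or within 5 kb (0.962%), beside 2.45% of all protein-coding genes. In OE-KDM4A 17 had one (8.17%), beside 5.34%. VWA3B was the 1 gene with both, at separate places: an NC peak 0.143 kb outside its span and an OE-KDM4A peak inside it. The other gene with an NC peak was LOC107985915, uncharacterised, at 94214940 to 94215178 (fold 4.90). All peaks at protein-coding genes were weak, with 7 to 15 fragments.

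The strongest of the genic peaks was in ANKRD36 on chromosome 2, at 97168785 to 97168945, with a fold of 8.40 and a −log10 q of 10.2. ANKRD36 and ANKRD36C, which had a peak of fold 5.77, encode ankyrin repeat proteins and are closely similar copies, so which of them the reads came from is uncertain. The next was in PTGER4, the gene of a prostaglandin E2 receptor, on chromosome 5 at 40691245 to 40691393 (fold 6.97, −log10 q 7.26). On chromosome 3 the ephrin receptor gene EPHA6 had 2 peaks over its 947 kb span (folds 5.77 and 5.25), EPHA3 had 1 (4.20), and HTR1F, a serotonin receptor gene, had 1 (4.72). Other chromosome 2 genes with a peak were RPIA, an enzyme gene of the pentose phosphate pathway (5.25), MGAT4A, a glycosyltransferase gene (5.25), VWA3B (4.20), FER1L5 (3.91), and CNNM3 with its neighbour CNNM4, which share 1 peak (3.07). C2orf92 had a peak just outside its span (4.26). SEPTIN14, a cytoskeletal septin gene on chromosome 7, had a peak of fold 5.36.

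The chromosome 7 window carries zinc finger (ZNF) genes, which are known to gather in clusters and to carry H3K9me3 in many cells. Of its 14 ZNF genes, 0 had an NC peak, beside 2.45% of all protein-coding genes, and 2 an OE-KDM4A peak (14.3%), beside 5.34%. These counts are too small to set against those shares. These were ZNF680 (64511858 to 64511976, fold 5.25, 9 fragments) and ZNF273 (64922464 to 64922616, fold 3.98, 7 fragments). The strong chromosome 7 peaks lay elsewhere, the nearest protein-coding gene to the 3 strongest NC peaks being ZNF716 at over 1 Mb. Of 10 olfactory receptor genes in the chromosome 3 window, 0 had a peak in either list, a count made after the values were seen.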

How the data were processed

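H3K9me3 ChIP-seq peak lists of 2 libraries were analysed. The submitters' processing notes list Bowtie 1.1.2, MACS2 2.1.0, Trimmomatic and the hg38 build, with neither roles nor settings. The deposited lists give a score (10 times the −log10 q, decimals dropped), the fold enrichment as a linear ratio, and −log10 p and −log10 q, 1 line per summit. Lines with the same ends were counted once, keeping the summit of highest −log10 q. No line had a −log10 q under 1.31.

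In MACS2, fold is (pileup + 1) / (background + 1), and p is the Poisson chance of more than that pileup given the background. Pileup and background at each summit were solved from these, as whole fragments in the ChIP, and gave the deposited −log10 p of the window peaks within 0.0143. Where several OE-KDM4A peaks overlapped an NC peak, the pair was made with the one of highest −log10 q. A background within 0.1% of a list's minimum was counted as the lowest. Read depth is unknown. Share intervals are Clopper-Pearson, those of ratios exact for 2 counts, pileup intervals exact Poisson, and those of medians from order statistics.

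Genes came from a RefSeq table of GRCh38.p14, the assembly hg38 names, and were counted with 5 kb at each end. Named peaks are the 3 of highest −log10 q per window and list, the strongest found in 1 list only and the widest; named clusters are the 2 with most peaks; named genes are those with a peak, of which 1 is not reported here. Values of other common regions and of the chromosome 2 gene-free stretch, a chromosome 3 group of 4 peaks and the olfactory receptor count were chosen after the values were seen. The windows and lists were chosen with earlier results of these data known. Steps were tested on simulated data. Software was scipy 1.17.1, numpy 2.4.6, matplotlib 3.10.9 and pandas 2.3.3 under Python 3.11.15.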

Additional observations from a re-analysis of the deposited data

How the results depend on the processing

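Of 117 values recomputed for 19 results (ratios, shares and fold differences, over the 4 windows and in each), 85 stayed within the interval of the reported value, 31 moved outside it and 1 reversed. In the gene-free stretches alone the ratio of peak numbers was 1.60 over all windows and 3 on chromosome 3, it reversed to 0.750 on chromosome 2, and the OE-KDM4A share overlapping NC was 34.7% over all, 33.3% on chromosome 2 and 22.2% on chromosome 3. With lists of equal length the ratio was 1.73 over all and 1.76 on chromosome 2. At a fold enrichment of at least 5 the ratio was 5.54 over all, 5.50 on chromosome 2 and 17.0 on chromosome 5 (17 against 1), the median log2 fold difference was 0.34 (11 regions), the NC share was 100% on chromosome 3 (1 of 1) and 0% on chromosome 5 (0 of 1), and the OE-KDM4A share was 7.64% over all, 5.45% on chromosome 2 and 0% on chromosome 5 (0 of 17). At a −log10 q of at least 5 the NC share was 71.8% over all and 100% on chromosome 3 (2 of 2), and the OE-KDM4A share 23.7%. At 10 the NC share was 86.2% over all, 70.0% on chromosome 2, 100% on chromosomes 3 (2 of 2) and 5 (9 of 9) and 87.5% on chromosome 7, and the OE-KDM4A share 31.6% over all, 25% on chromosome 3 and 35.0% on chromosome 7. Within 5 kb the OE-KDM4A share was 25.3% over all and 24.7% on chromosome 2, and with 50% of both peaks required the chromosome 5 shares were 38.5% in NC and 21.7% in OE-KDM4A. These alternatives change which peaks are counted; other causes were not tested. A fold limit is not equivalent between lists whose controls differ. Fold differences are not given for chromosome 3, which had 2 common regions. No paired analysis was possible because each condition has 1 library and no result comes from a test.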

Other observations

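The recovered values also bear on the depth of the libraries, a reading made after the values were seen. Among the window peaks above the lowest background of their list, the control background was a whole multiple of 1 step for 39 of 49 in NC (step 0.426) and 64 of 87 in OE-KDM4A (step 0.778), within 0.005 of a step. The 99 OE-KDM4A peaks at the lowest background are not in this count. Read as 1 control fragment after scaling to the ChIP library, the step was 1.83 times larger in OE-KDM4A. At the chromosome 3 peak of highest q value the control then held 4096 fragments in NC and 447 in OE-KDM4A. At the chromosome 5 peak from 49661419 it held 1115 and 283, and at the chromosome 2 peak from 89833260 it held 663 and 241. Over the 20 common regions where both values were whole, NC had a median of 4.42 times as many, from 1 to 20 times. These counts are not corrected for the depths of the control libraries, which are unknown. Regions at the lowest OE-KDM4A background are not among the 20. The lowest background of each list was 0.811 in NC and 0.905 in OE-KDM4A, a ratio of 1.12. The pileup ratio of the 11 common regions with a −log10 q of at least 30 in NC had a median of 1.15, and that of the chromosome 3 peak was 1.53. What sets the difference between the controls was not tested.

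Many peaks shared their values exactly. The 186 OE-KDM4A peaks of the windows had 103 different folds, and the 99 at the lowest background had 22. The commonest fold, 5.77, occurred at 17 peaks, each with 10 fragments over 0.905. In NC the 60 peaks had 56 different folds. Peaks with several summits were 6 of 60 in NC and 24 of 186 in OE-KDM4A, of which chromosome 5 held 5 and 11 and chromosome 2 held 1 and 12. Over the whole lists they were 53 of 1165 in NC and 215 of 3785 in OE-KDM4A.

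The bounds of the windows cut through thinly filled stretches. The OE-KDM4A peak nearest to a bound lay 52.5 kb inside the chromosome 3 window, and the nearest outside lay 110 kb beyond the end of the chromosome 2 window. In NC these distances were 1113 kb inside and 1045 kb outside.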
